A study of Homo sapiens with 2 samples.

Results

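The distal FAIRE peaks of human chromosome 2 are described here. They are the 6712 regions in the 3 deposited peak lists that lay on that chromosome and carried the annotation intron or Intergenic, of 56159 peaks in all (11.95%). Of these, 1294 were listed as common to both libraries, 2139 as specific to the control library and 3279 as specific to the NR2E3-depleted library. The chromosome was chosen by its peak density in these same lists, so density is given as a description and without a test. A further 1056 peaks of the chromosome had other annotations, such as promoters and exons, and are not members.

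FAIRE-seq was performed in HepG2, an established human liver cancer cell line, with 1 library per group. Both groups were transduced with lentiviral particles that express a small hairpin RNA. The hairpin was scrambled in the control group and directed against the nuclear receptor NR2E3 in the depleted group. No difference between the libraries therefore has a replicate check, and no test between them was possible. Intervals are at the 95% level. They account for counting error alone and take each peak as independent, although peaks cluster.

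FAIRE recovers sheared DNA that was not crosslinked to protein, so nucleosome-poor stretches are enriched among the reads. Away from promoters such stretches include enhancers, where sequence-specific factors bind and act on genes at a distance, and boundary elements, where CTCF binds and folds the chromatin fibre. In hepatocytes many enhancers are held open by the liver-enriched factors HNF4, HNF1, the forkhead factors FOXA and C/EBP, together with AP-1. NR2E3 is an orphan nuclear receptor that binds the element AAGTCA. Chromosome 2 carries liver genes such as APOB, which encodes the protein of low density lipoproteins, CPS1, the entry enzyme of the urea cycle, and FABP1, a fatty acid carrier of hepatocytes. It also carries long stretches with few genes, occupied by neural and adhesion genes.

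The sequences show what kinds of region the lists held. Each is the reference sequence (hg38, plus strand) within 100 bp of a peak centre. In the first pair, from the highest-scoring common and control-specific members, capitals mark copies of GGAAT, the unit of a satellite repeat found next to centromeres.
Common, chr2:90390639-90390839, score 42.7: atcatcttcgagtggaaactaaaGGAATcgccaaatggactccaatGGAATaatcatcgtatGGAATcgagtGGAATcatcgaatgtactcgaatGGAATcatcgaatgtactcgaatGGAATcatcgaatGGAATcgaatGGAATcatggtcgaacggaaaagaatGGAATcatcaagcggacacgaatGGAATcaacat
Control-specific, chr2:89807135-89807335, score 10.2: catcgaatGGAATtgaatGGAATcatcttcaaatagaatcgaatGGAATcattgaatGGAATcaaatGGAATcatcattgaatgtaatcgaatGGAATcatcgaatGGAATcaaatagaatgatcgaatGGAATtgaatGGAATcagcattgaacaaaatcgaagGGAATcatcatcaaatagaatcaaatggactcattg
The control-specific one shared its score with 1 other member. Outside that repeat a highest-scoring member of each list is shown, and in the control-specific list 3 members, nearest to APOB, LINC01913 and EVA1A, tied at 9.76. In these sequences, capitals mark matches to the motifs searched, which are spelled out with the motif results. The common one held 2 overlapping C/EBP matches and a CCAAT box, the control-specific one, upstream of APOB, held the NR2E3 element and a CCAAT box, and the depleted-specific one held no match.
Common, chr2:53826996-53827196, score 19.1: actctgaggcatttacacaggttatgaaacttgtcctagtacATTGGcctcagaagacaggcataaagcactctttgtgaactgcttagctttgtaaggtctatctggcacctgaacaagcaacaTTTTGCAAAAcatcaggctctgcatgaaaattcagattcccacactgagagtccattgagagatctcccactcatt
Control-specific, chr2:21070674-21070874, score 9.76: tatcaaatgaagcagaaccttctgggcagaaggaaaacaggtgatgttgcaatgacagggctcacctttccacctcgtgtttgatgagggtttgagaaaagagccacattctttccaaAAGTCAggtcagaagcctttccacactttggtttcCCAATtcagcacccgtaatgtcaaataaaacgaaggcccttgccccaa
Depleted-specific, chr2:145760973-145761173, score 19.3: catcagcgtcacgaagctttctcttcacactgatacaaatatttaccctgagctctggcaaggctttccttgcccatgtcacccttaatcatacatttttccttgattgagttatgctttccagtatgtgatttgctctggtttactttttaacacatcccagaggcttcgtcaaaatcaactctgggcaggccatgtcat
The next pair was chosen after its values were seen. The first is the depleted-specific member next to the control-specific one at APOB, with a forkhead and a TCF/LEF match in capitals. The second is the highest-scoring common member with a CTCF match, near PKDCC, with that match in capitals.
Depleted-specific, chr2:21070369-21070569, score 11.7: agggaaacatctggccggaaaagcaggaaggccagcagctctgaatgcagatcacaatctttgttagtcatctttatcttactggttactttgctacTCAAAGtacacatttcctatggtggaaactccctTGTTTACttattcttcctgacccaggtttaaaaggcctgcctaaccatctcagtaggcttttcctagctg
Common, chr2:42095974-42096174, score 9.76: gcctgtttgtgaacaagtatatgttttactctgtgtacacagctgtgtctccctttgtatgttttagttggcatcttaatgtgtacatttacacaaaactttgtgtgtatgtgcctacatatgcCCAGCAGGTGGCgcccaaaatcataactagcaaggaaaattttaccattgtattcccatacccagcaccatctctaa

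Single members rested on few reads. The peak score of the deposited lists is a scaled number of reads (tags), and within each list 100% of scores under 10 could be written as a whole number of tags times a fixed step. The median member held 16 tags in the common list (Poisson interval 9.15 to 26.0), 14 in the control-specific list (7.65 to 23.5) and 12 in the depleted-specific list (6.20 to 21.0). Common peaks carried scores on the control scale. From the steps, the depleted library was 0.802 times as deep as the control, provided the scores were scaled alike. The lowest members held 10 tags in the control-specific and 8 in the depleted-specific list. A score of 10 or more was reached by 122 of 1294 common, 2 of 2139 control-specific and 64 of 3279 depleted-specific members. The step was 0.407 on the control scale and 0.507 on the depleted scale. That score thus stood for fewer tags in the depleted-specific list than in the others. At 15 or more tags the numbers were 964 common, 813 control-specific and 483 depleted-specific members. The common share of the control library's peaks followed the tags. It was 15.9% at 12 tags or fewer, 34.9% at 15 to 16, 62.7% at 17 to 19 and 98.4% at 25 or more.

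Chromosome 2 carried 5.38 common, 8.89 control-specific and 13.6 depleted-specific distal peaks per Mb, over 240.5 Mb of determined sequence. On the other 17 chromosomes outside a set of 5 that are denser or near as dense (6, 14, 16, 17 and 20), the densities were 1.35, 1.08 and 2.91 per Mb. The excess of chromosome 2 over those 17 was thus 3.99-fold for common, 8.26-fold for control-specific and 4.69-fold for depleted-specific peaks. Against the 5 dense chromosomes the folds were 0.442, 0.436 and 0.563. Of the 23 chromosomes 1 to 22 and X, chromosome 2 ranked 5 in common density and 4 in each specific list. The excess over the 17 was present at each level of GC content. In 1 Mb bins with a GC content under 37%, chromosome 2 held 9.15 distal peaks per Mb against 0.807 on the 17, and in bins of 43% or more it held 42.1 against 9.52. No other property of the chromosomes was matched, and the cause of the excess was not tested.

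Depleted-specific members outnumbered control-specific ones by a ratio of 1.53 (1.45 to 1.62). They made up 60.5% of the specific members, against 59.7% of all specific distal peaks of chromosomes 1 to 22 and X. The ratio was 1.48 on the other 22 chromosomes together, but 2.70 on the 17 and 1.19 on the 5 dense chromosomes. The share on chromosome 2 lay 12.5 points below that of the 17 (interval of the difference -14.1 to -10.9) and 6.24 points above that of the 5 (4.77 to 7.70). The direction depended on the threshold. With 15 or more tags required in both lists the ratio turned to 0.594 (0.530 to 0.666), since 38.0% of control-specific but 14.7% of depleted-specific members had that many. With a score of 6 or more it was 2.89 (2.67 to 3.13). Common members made up 37.7% of the control library's distal peaks (36.1 to 39.3), 17.9 points below the 17 chromosomes (-20.0 to -15.8). The difference from the 5 dense chromosomes was 0.308 points (-1.48 to 2.12).

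Along the chromosome, 242 of the 1 Mb bins held members and the bin at 194 to 195 Mb alone held none. A bin held 23 members at the median, 9 at the lower and 40.5 at the upper quartile, and 122 at most. The variance was 18.9 times the mean, so peaks were gathered far more than an even spread would give. The 55 fullest bins held 50% of the members. The longest stretch without a member ran for 2095 kb, from 193456757 to 195551369. Common peaks were absent from 55 bins, control-specific from 11 and depleted-specific from 7.

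**Figure D1:**
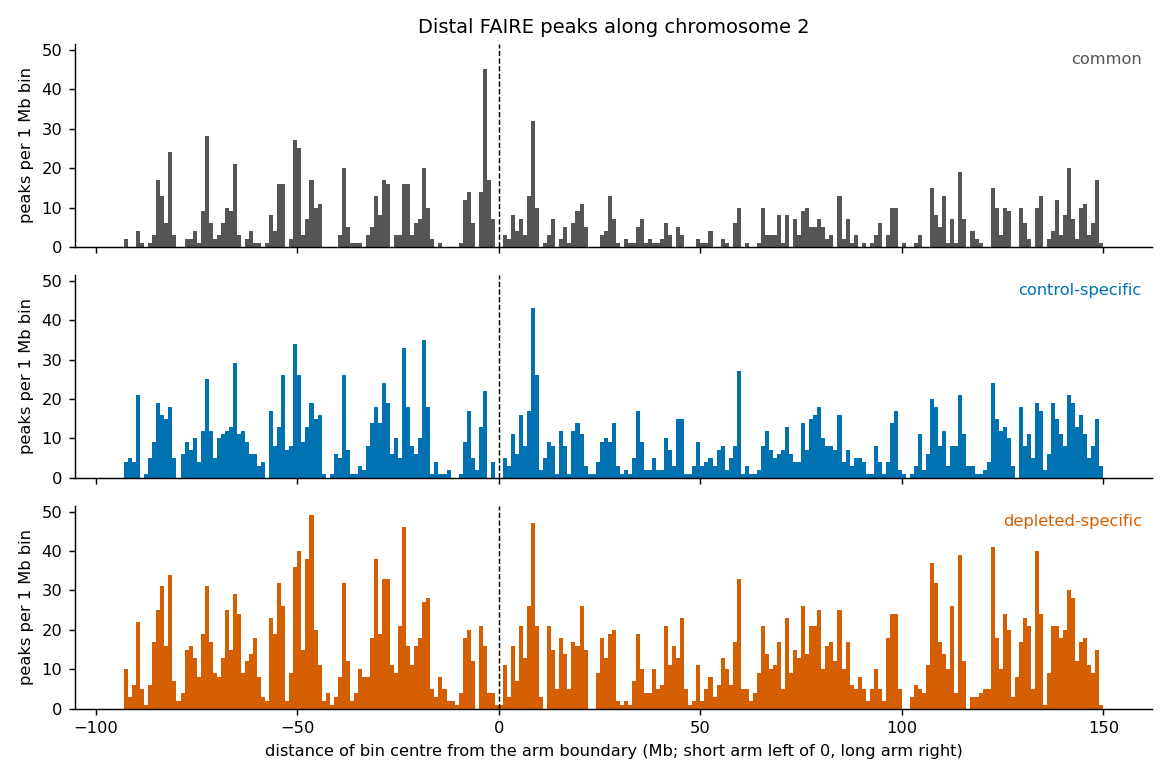
Distal peaks per 1 Mb bin (y) against the distance of the bin centre from the arm boundary in Mb (x), in 3 panels for the common, control-specific and depleted-specific lists. The fullest common bin, with 45 peaks, lies just left of the boundary, while specific peaks reach 43 and 49 per bin elsewhere and largely the same stretches are full or sparse in all lists.

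Of the 5 fullest bins, those at 42 to 44 Mb were neighbours and the others lay apart. The bin at 101 to 102 Mb held 122 members (32 common, 43 control-specific and 47 depleted-specific), 46 of them nearest to MAP4K4, a kinase of stress signalling. The bin at 42 to 43 Mb held 97 (27, 34 and 36 in the same order), led by PKDCC, a secreted kinase. The bin at 69 to 70 Mb held 95 (16, 33 and 46), led by the microRNA gene MIR3126, although its 23 members all lay inside ANTXR1. The bin at 43 to 44 Mb held 91 (25, 26 and 40), led by LINC01126, whose 26 members lay inside THADA. The bin at 46 to 47 Mb held 85 (17, 19 and 49) and was led by EPAS1, the hypoxia-inducible factor HIF-2 alpha. In 4 of these bins the specific lists differed by 2 to 14 peaks, and in the EPAS1 bin by 30.

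Full and empty bins were shared between the libraries. Over the bins with at least 0.5 Mb of determined sequence the numbers of control-specific and depleted-specific members had a Spearman rho of 0.869 (0.877 on the short and 0.862 on the long arm). Common with control-specific numbers gave 0.834 and common with depleted-specific numbers 0.841. The points share libraries, mappability and base composition, so these are descriptions. Depleted-specific members outnumbered control-specific ones in 190 of 242 bins with a specific member (78.5%), against 79.6% of such bins on all 23 chromosomes. Control-specific members were more numerous in 33 bins and the numbers were equal in 19.

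Density followed base composition and genes. In 4 equal groups of bins, from the lowest GC content to the highest, density was 8.75, 24.6, 36.2 and 42.4 members per Mb. The ratio of depleted-specific to control-specific members was 1.73 (1.43 to 2.10) in the lowest group, then 1.62 and 1.58, and 1.40 (1.28 to 1.54) in the highest. The common share of the control library was 29.2% (23.5 to 35.4) in the lowest and 39.97% (37.4 to 42.6) in the highest group. Across bins sorted by protein-coding genes the densities were 9.97, 21.9, 39.5 and 40.1 per Mb. Bins rich in genes and bins rich in GC thus held more members of every list than poor bins. Depleted-specific density was 18.8 per Mb in the group with most genes and 19.3 in the group before it.

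**Figure D2:**
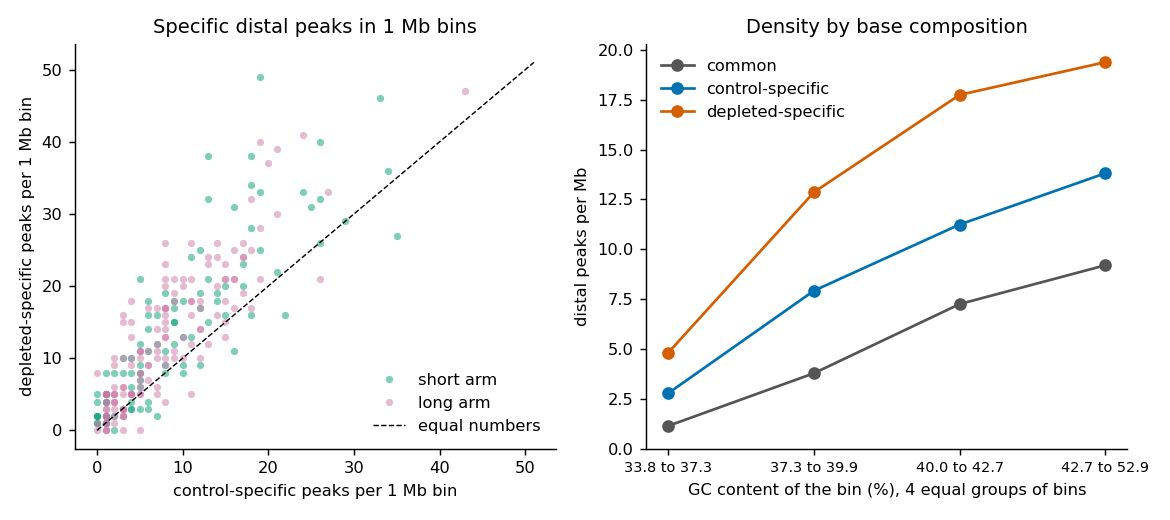
Left, depleted-specific (y) against control-specific (x) distal peaks in each 1 Mb bin, coloured by arm, with a dashed line of equal numbers. Right, distal peaks per Mb (y) of each list in 4 equal groups of bins by GC content (x), which went from 1.15 to 9.20 for common, 2.79 to 13.8 for control-specific and 4.82 to 19.4 for depleted-specific peaks.

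The short arm was denser than the long arm. The boundary was set at 93 Mb, inside the stretch from 92.2 to 94.1 Mb where the sequence had the period of centromeric alpha satellite. Common members numbered 631 on the short arm (6.88 per Mb) and 663 on the long arm (4.45 per Mb), a long to short density ratio of 0.647 (0.579 to 0.723). Control-specific members gave 930 and 1209 (10.15 and 8.12 per Mb), a ratio of 0.800 (0.734 to 0.873). Depleted-specific members gave 1381 and 1898 (15.1 and 12.75 per Mb), a ratio of 0.846 (0.789 to 0.908). Protein-coding genes were about equally dense, 5.13 per Mb on the short and 5.22 on the long arm.

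The balance of the specific lists did not differ between the arms beyond counting error. Depleted-specific members were 59.8% of specific ones on the short and 61.1% on the long arm, a difference of 1.33 points (-1.33 to 3.99). The common share of the control library was lower on the long arm, 35.4% against 40.4%, a difference of -5.01 points (-8.30 to -1.71). Without the members made of GGAAT repeats, described next, this difference was -2.79 points with an interval that held 0 (-6.13 to 0.545), and the common density ratio of the arms was 0.726 (0.648 to 0.814). Introns held 54.6% of long-arm and 50.7% of short-arm members, a difference of 3.97 points (1.54 to 6.39).

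A group of 112 members consisted of GGAAT repeats, with 7 to 43 copies of the unit in the listed interval on 1 strand, while the other 6600 had 4 or fewer. These members were separated by their sequence after the data were seen. All lay between 89772504 and 92081362, on the short arm within a few Mb of the centromere, and none was intronic. They held 69 common, 21 control-specific and 22 depleted-specific members, a part of 5.33% of the first list, 0.982% of the second and 0.671% of the third. Their common share of the control library was 76.7% (66.6 to 84.9), against 36.6% (35.01 to 38.3) of the other members, a difference of 40.02 points (29.8 to 48.5). For GGAAT repeat peaks of the other 22 chromosomes, with 5 or more copies, that share was 67.8% (62.2 to 73.0), so it was high there too.

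The repeat members formed 3 blocks and 1 single peak. The block at 89 to 90 Mb held 45 common, 17 control-specific and 15 depleted-specific members, with a median of 16 tags in the common list. With neighbours outside the repeat it made the run with the most members, 83 within 86.0 kb. The block from 90380663 to 90401282 held 17 common, 0 control-specific and 3 depleted-specific members, with a median of 43 tags among the common ones. It included the 3 highest-scoring common members (42.7, 42.3 and 36.2) and 12 of the 122 common members with a score of 10 or more. The block at 91 to 92 Mb held 7, 4 and 3. GENCODE placed no gene under any of the 3. The nearest gene of most was LOC101927050, at least 127305 bp away, so its 104 members (62, 22 and 20) are these repeats and their neighbours. Reads from such repeats can come from many copies, and how reads that fit several places were treated is not stated.

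Over 25 segments of 10 Mb the balance of the specific lists was even. The depleted-specific share ran from 49.0% in the last segment (240 to 243 Mb) to 66.2% at 160 to 170 Mb, and in 0 of 25 segments did its interval leave out the share of the whole chromosome. The common share of the control library lay outside in 3 segments, 56.4% (48.5 to 64.2) at 80 to 90 Mb, 49.0% (39.1 to 59.0) at 90 to 100 Mb and 19.6% (10.2 to 32.4) at 140 to 150 Mb. Without the GGAAT repeats the first was 46.5% (36.55 to 56.7) and the second 35.5% (24.9 to 47.3), both with intervals that held the chromosome-wide value, and the segment at 140 to 150 Mb alone lay outside. That segment was also the sparsest, with 11.7 members per Mb, and the densest were 40 to 50 Mb (47.2) and 60 to 70 Mb (47.1).

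**Figure D3:**
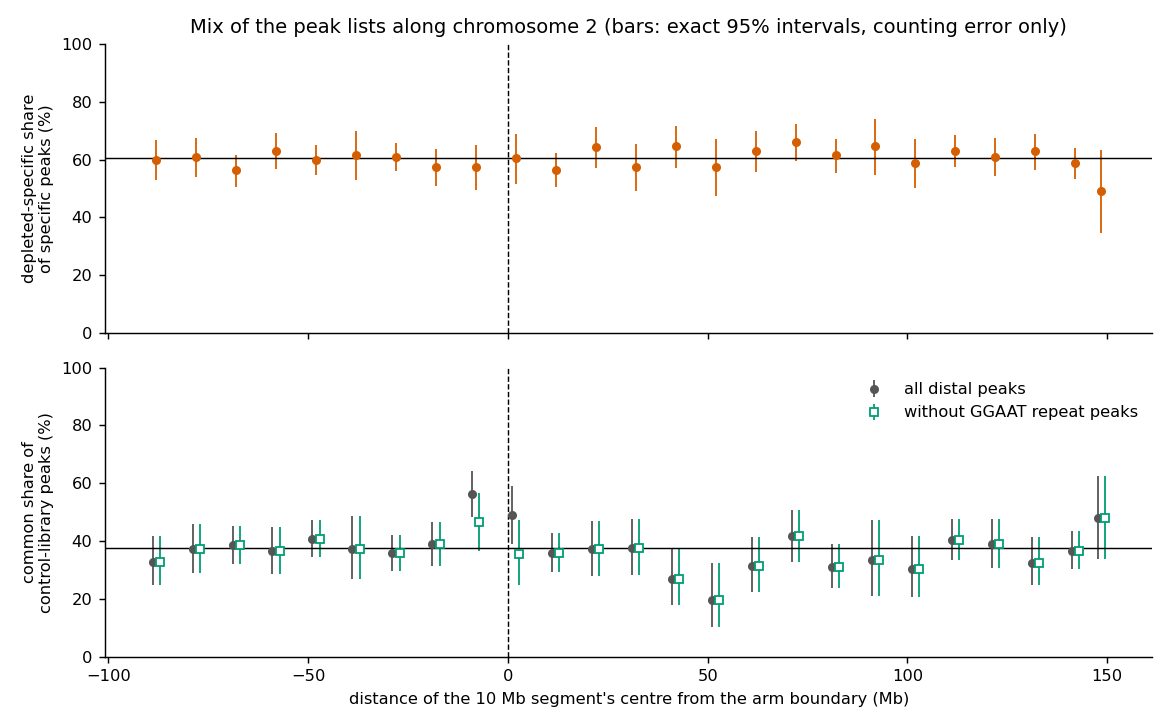
Depleted-specific share of specific distal peaks (top) and common share of the control library's distal peaks (bottom) in 10 Mb segments, against the distance from the arm boundary in Mb. Bars are exact 95% intervals, horizontal lines the values of the whole chromosome, and open squares leave out GGAAT repeat peaks, which brings the 56.4% of the segment left of the boundary to 46.5%.

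Neighbouring members formed runs. Joined when centres lay within 10 kb, they made 3725 runs, of which 2440 were single peaks, and 199 runs of 5 or more held 23.4% of the members. Outside the repeats the largest run was 30 members over 90.2 kb inside FMNL2, a formin that assembles actin (152400939 to 152491113, 5 common, 9 control-specific and 16 depleted-specific). Next came 26 members inside MAP4K4 (5, 12 and 9) and 25 between PKDCC and EML4 over the antisense gene EML4-AS1 (8, 7 and 10). A run of 20 with the Wnt receptor gene FZD5 as nearest gene extended over PLEKHM3 (6, 5 and 9). All of these runs held members of every list.

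The members had 1318 nearest genes in the deposited annotation, with a median of 3 members, and 304 genes had 1. Depleted-specific members were more numerous at 722 genes, control-specific at 338, and at 258 the numbers were equal. The depleted-specific list was itself longer, with 3279 members against 2139. Nearest genes on other chromosomes were not counted this way, so these counts describe the lists. Members of both specific lists were found at 727 genes. The nearest gene is the one with the closest transcription start site (TSS), which is often not the gene a peak lies in. Most distal peaks were far from it, at a median of 27.15 kb for common, 35.5 kb for control-specific and 34.05 kb for depleted-specific members.

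After LOC101927050, MAP4K4 had the most members, with 9 common, 20 control-specific and 17 depleted-specific. SPRED2, an inhibitor of Ras to ERK signalling, had 9, 13 and 23. FMNL2 had 7, 13 and 21, and 40 of its 41 lay inside the gene. MIR5702 had 2, 11 and 20, and TNRC17 had 5, 13 and 13, all 31 inside AGAP1. FZD5 had 10, 8 and 12, none of them inside it. NPAS2, a circadian factor of the CLOCK family, had 10, 7 and 12. These genes were rich in members of all lists, and among them the order of the specific lists was not uniform.

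The largest depleted-specific excess was at EPAS1 and NRP2 (each 14 peaks), followed by PRKCE, SESTD1 and SPRED2. EPAS1 had 8 common, 7 control-specific and 21 depleted-specific members (ratio 3, 1.23 to 8.35), of scores from 4.47 to 10.2. However, 20 of its 36 lay inside PRKCE, the neighbouring gene for a protein kinase C isoform. Counted by position, PRKCE (45651279 to 46187990) held 6, 11 and 30 members and EPAS1 itself (46297407 to 46386697) held 6, 3 and 5. NRP2, a co-receptor for semaphorins and VEGF, had 4, 6 and 20 members (ratio 3.33, 1.29 to 10.1), of which 10 lay inside it and 13 inside PARD3B. SESTD1 had 3, 1 and 12 (ratio 12, 1.78 to 513), but counted by position the gene held 1, 2 and 6. Its depleted-specific members had scores from 5.07 to 8.11, where the whole list had a minimum of 4.06 and a median of 6.08. These genes were selected on their excess, so the ratios are descriptions.

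In the other direction E2F6, a repressive E2F factor, had 2 common, 8 control-specific and 2 depleted-specific members, 6 of its 12 inside the neighbouring estrogen-regulated gene GREB1. HK2, the hexokinase that many tumours use for glycolysis, had 8, 11 and 6. FOXN2 had 6, 11 and 6, LINC00298 had 5, 9 and 4, and BCYRN1 had 2, 7 and 2. The excess of control-specific members was smaller, at most 6 peaks. The interval of the ratio held 1 at HK2 (0.166 to 1.61), as it did at E2F6 (up to 1.25).

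**Figure D4:**
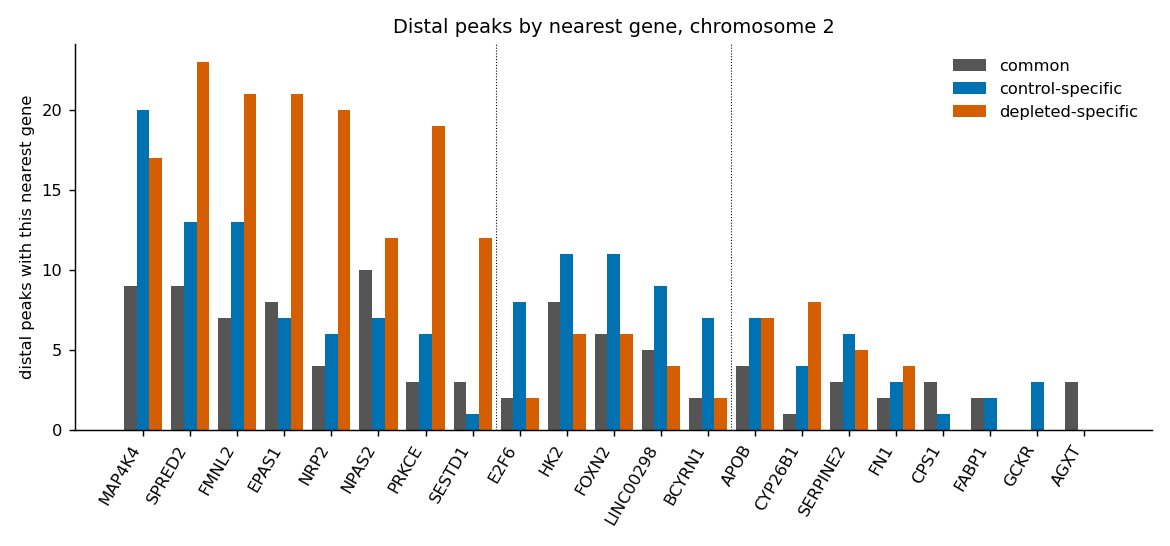
Number of distal peaks (y) with the named nearest gene (x) in the common, control-specific and depleted-specific lists, for genes with many peaks, genes with more control-specific peaks and genes of the liver list, separated by dotted lines. EPAS1, NRP2, PRKCE and SESTD1 show the depleted-specific excess, and GCKR and AGXT show peaks of a single list.

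Of 22 liver and metabolism genes, 17 were nearest to a member. A depleted-specific member was found at 10 (45.5%), against 56.9% of the 1254 protein-coding genes of the chromosome, a control-specific member at 13 (59.1%), against 49.4%, and a common member at 11 (50%), against 35.2%. Depleted-specific members were more numerous at 6 of these genes, control-specific at 7, and at 9 the numbers were equal. For the 1254 protein-coding genes the same counts were 473, 231 and 550, with genes without a specific member among the equal ones. GCKR, the regulator of glucokinase, had 0 common, 3 control-specific and 0 depleted-specific members, all in its introns and of 13 to 19 tags. CPS1 had 3, 1 and 0, FABP1 had 2, 2 and 0, and ABCG5, a sterol exporter, had 1, 2 and 0. AGXT, which detoxifies glyoxylate, had 3 common members alone. In the other direction PROC, the precursor of the anticoagulant protein C, had 0, 2 and 4 members and CYP27A1, a sterol hydroxylase of bile acid synthesis, had 1, 2 and 4. Counted by position, however, CYP27A1 held 0, 4 and 2 members, and none lay inside PROC. KHK, the fructokinase, had 2, 0 and 2, and SCTR, the secretin receptor, had 0, 0 and 1. CYP26B1, which degrades retinoic acid, had 1, 4 and 8, but 8 of its 13 lay inside EXOC6B and none inside the gene itself. SERPINE2 had 3, 6 and 5 and FN1, fibronectin, had 2, 3 and 4. No member was nearest to ABCB11, IGFBP2, UGT1A1, CYP1B1 or SLC5A6, although 1 lay inside ABCB11 and 1 inside SLC5A6.

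APOB (21001429 to 21044073) was nearest to 18 members from 20963065 to 21076271, of which 4 were common, 7 specific to the control and 7 to the depleted library. Its highest common member had a score of 12.2 at -12434 bp from the TSS. Its highest control-specific member (21070624 to 21070924, score 9.76, 24 tags, -26701 bp) and its highest depleted-specific member (21070319 to 21070619, score 11.7, 23 tags, -26396 bp) lay next to each other with 4 bases between them. Peaks of like tag number in both libraries thus lay side by side there, and each was entered as specific. Their sequences are given above.

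Such neighbours were a minority. No control-specific and depleted-specific member overlapped, and the closest pair, near MRPL33 (27752299 to 27752599 and 27752600 to 27752900), abutted. On the other 22 chromosomes too, 0 of 18199 depleted-specific distal peaks overlapped a peak of the control library. The rule that split the lists is not stated, so no result is read from the lack of overlap. Of the 2139 control-specific members, 47 (2.20%, 1.62 to 2.91) had the centre of a depleted-specific member within 400 bp, 161 (7.53%, 6.44 to 8.73) within 1000 bp and 911 (42.6%) within 10000 bp. These distances between the specific lists were not counted on other chromosomes. Counting common peaks and all annotations too, 11.97% of control-specific members (10.6 to 13.4) lay within 1000 bp of a peak of the other library, against 25.2% (24.4 to 26.1) on the 5 dense chromosomes and 12.35% on the 17. For depleted-specific members the shares were 8.997% (8.04 to 10.03), 21.7% and 5.94%.

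Of 11 Wnt and stem-like markers, 9 had a member. A depleted-specific member was found at 8 (72.7%, against 56.9% of protein-coding genes), a control-specific at 4 (36.4%, against 49.4%) and a common at 2 (18.2%, against 35.2%). Of the 1254 protein-coding genes, depleted-specific members were more numerous at 473, control-specific at 231, and neither at 550. Among the 11 markers, depleted-specific members were more numerous at 5, control-specific at 2, and at 4 the numbers were equal. Except for FZD5 the numbers were small, with 0, 0 and 3 at GLI2, the Hedgehog effector, 0, 0 and 2 each at ID2 and SP5, and 0, 3 and 1 at the Wnt receptor FZD7. EPCAM, a surface marker of stem-like liver cancer cells, had 0, 1 and 1, and MYCN and TCF7L1 had none, although 7 members lay inside TCF7L1 with another nearest gene. Counted by position, 5 of the 11 genes (45.5%) held a member inside, against 61.6% of protein-coding genes. Their 16 members made 0.664 per 100 kb of gene, against 3.21, and 5 of the 16 lay in LRP1B, a gene of 1900 kb.

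Of 21 transcription factor genes, 12 were nearest to a member, 11 to a depleted-specific one (52.4%, against 56.9% of protein-coding genes), 9 to a control-specific one (42.9%, against 49.4%) and 5 to a common one (23.8%, against 35.2%). All of these shares by nearest gene were below those of the protein-coding genes. Counted by position, 13 of the 21 genes (61.9%) held a member inside, against 61.6% of protein-coding genes. Their density was 4.03 members per 100 kb of gene, against 3.21. Depleted-specific members were more numerous at 10 and control-specific at 1, HOXD13, which had 0, 1 and 0. Of the 52 depleted-specific members of these genes, 21 were those of EPAS1. By nearest gene STAT4 had 1, 1 and 5 members, CREB1 1, 1 and 4, KLF7 0, 2 and 4, and SP9 0, 0 and 3, 1 of the last with a score of 11.7. The Sp1-related SP3 had 2, 1 and 3. Counted by position, STAT4 held 0, 1 and 2, CREB1 0, 1 and 1 and KLF7 0, 5 and 2, and none lay inside SP9 or SP3. Over all 1254 protein-coding genes depleted-specific members were more numerous at 473, control-specific at 231, and at 550 the numbers were equal.

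The 16 long neural and adhesion genes, with a median length of 904.1 kb, were sparse in peaks for their length. All but 1, ERBB4, were nearest to a member (6 lay inside ERBB4 with another nearest gene), 14 to a depleted-specific one (87.5%, against 56.9% of protein-coding genes) and 14 to a control-specific one (87.5%, against 49.4%). Counted by position, whatever the nearest gene, 166 members lay inside them, a density of 1.16 per 100 kb of gene. The same density was 3.21 over the protein-coding genes and 5.65 over the liver list. LRP1B, among the longest human genes, was nearest to 0, 3 and 1 members and by position held 0, 3 and 2. PRKCE was nearest to 3, 6 and 19 members and by position held 8.76 per 100 kb, against 0.863 over the other genes of the list. PARD3B was nearest to 0, 3 and 10 members and by position held 2, 6 and 11. THSD7B was nearest to 1, 5 and 8 and by position held 1, 6 and 10.

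The 10 motifs were looked for on either strand of the same windows as the sequences above, as TGANTCA for AP-1, TGTTTAC for forkhead factors, CAAAGTCCA for HNF4, GTTAATNAT for HNF1, TTGCNNAA for C/EBP, GGGCGG for Sp1, CCAAT for NFY, CTTTGA for TCF/LEF, AAGTCA for NR2E3 and the core consensus for CTCF. Each share is set beside that of all windows of the same length on chromosome 2. All were compared in the 3 lists, and a match is a description of letters. Motifs of liver factors were most frequent in common members. HNF4 matched 2.01% of common (1.32 to 2.93), 0.561% of control-specific and 0.884% of depleted-specific members, against 0.255% of all windows. AP-1 matched 11.7%, 8.23% and 10.1% in the same order, against 6.39%. Depleted-specific members exceeded control-specific ones in AP-1 by 1.90 points (0.292 to 3.46). Among the 10 motifs AP-1 alone had an interval for this difference that left out 0, with no allowance for the number compared. The order was the same on the 17 chromosomes (13.0% against 8.47%) and on the 5 dense ones (8.75% against 7.29%). Forkhead matched 6.11%, 4.02% and 4.33%, against 3.20%. HNF1 matched 2.24%, 0.655% and 1.04%, against 0.931%, and C/EBP 15.4%, 12.3% and 12.2%, against 11.01%.

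The NR2E3 element did not separate the lists. It matched 14.1% of common, 15.1% of control-specific and 14.55% of depleted-specific members, against 13.8% of all windows, and depleted-specific minus control-specific was -0.600 points (-2.59 to 1.35). TCF/LEF matched 20.6%, 15.9% and 17.1%, against 14.8%. The CCAAT box matched 24.3%, 26.2% and 25.9%, against 28.1%, so it was the motif with shares below those of all windows in every list. Sp1 matched 6.65% of common, 2.24% of control-specific and 2.96% of depleted-specific members, against 2.45%. Depleted-specific minus control-specific was 0.714 points for Sp1 (-0.194 to 1.58). In depleted-specific peaks the Sp1 share was 4.12 points lower than on the 17 chromosomes (-4.98 to -3.23) and differed from the 5 dense chromosomes by 0.174 points (-0.461 to 0.875). The mean GC content of the windows was 46.1%, 44.01% and 43.9%, against 40.2%.

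CTCF set chromosome 2 apart from the pooled other chromosomes in the common list, though single chromosomes were not compared. It matched 4.56% of common members, against 2.28% on the other 22 chromosomes, a difference of 2.28 points (1.16 to 3.60), and against 0.0664% of all windows. The share was 1.80% on the 17 and 2.52% on the 5 dense chromosomes, and the differences were 2.76 points (1.55 to 4.12) and 2.04 points (0.889 to 3.38). In the specific lists the order against the 17 was the opposite, 1.64% of control-specific members against 4.51% (-2.88 points, -3.92 to -1.85) and 1.71% of depleted-specific members against 4.41% (-2.71 points, -3.38 to -2.00). Of the control library's distal peaks with a CTCF match, 62.8% were common on chromosome 2 (59 of 94 peaks, 52.2 to 72.5) and 33.3% on the 17 (26.1 to 41.2), a difference of 29.4 points (16.2 to 41.6). For peaks without a match the order was reversed, 37.0% against 56.3%, a difference of -19.3 points (-21.4 to -17.1). On the 5 dense chromosomes 66.4% of peaks with a match were common, and chromosome 2 minus those was -3.61 points with an interval that held 0 (-15.8 to 8.15).

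Against the 17 chromosomes, the excess of chromosome 2 was smaller for peaks with a CTCF match than for peaks without one. Chromosome 2 had 0.624 distal peaks per Mb with a match against 0.201 on the 17, a fold of 3.10, and 27.3 without a match against 5.13, a fold of 5.32. For Sp1 the folds with and without a match were 2.61 and 5.43, for HNF4 2.64 and 5.29, for AP-1 4.15 and 5.39, and for the NR2E3 element 5.17 and 5.24. Against the other 22 chromosomes together this order did not hold for CTCF, with folds of 2.08 with and 1.89 without a match, nor for AP-1, with 1.95 and 1.88. Against the 5 dense chromosomes the CTCF folds were 0.843 and 0.487. The median of the control library's peaks on chromosome 2 was 15 tags with or without a CTCF match.

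**Figure D5:**
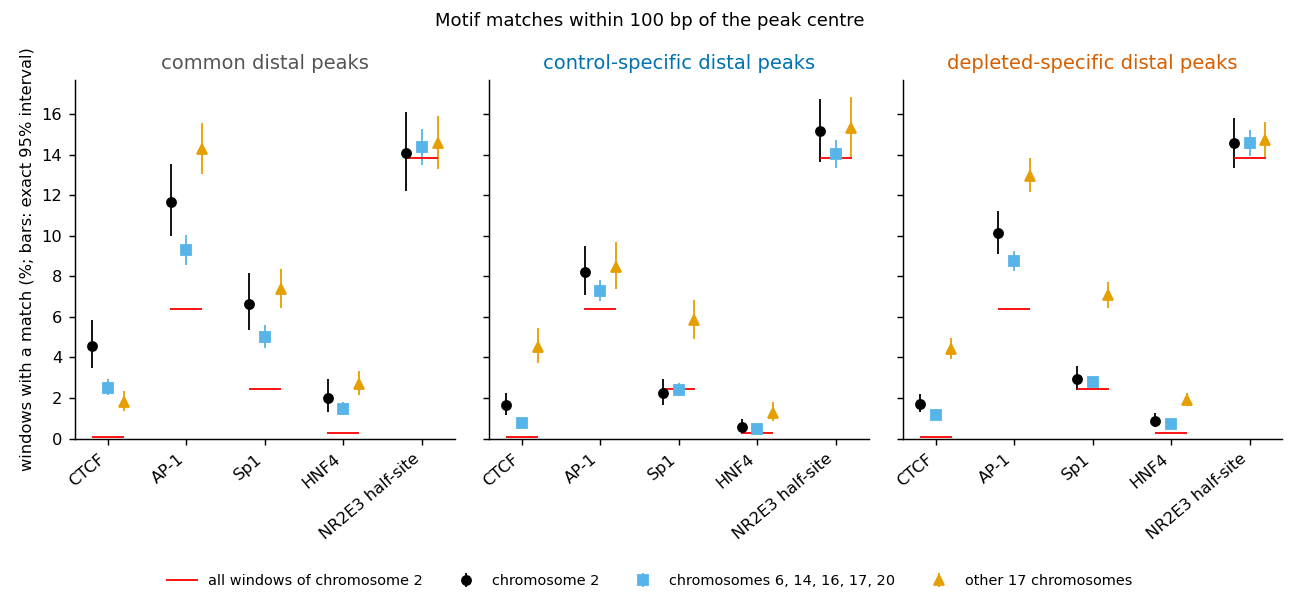
Share of distal peaks with a motif match within 100 bp of the peak centre (y, percent, bars are exact 95% intervals) for 5 motifs (x), in panels for the common, control-specific and depleted-specific lists. Chromosome 2 lies above both other sets for CTCF in common peaks (4.56%), between them for CTCF in specific peaks, and beside them for the NR2E3 element, where all sets are near the 13.8% of all windows of the chromosome (red lines).

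Introns held 49.0% of common, 55.2% of control-specific and 52.9% of depleted-specific members. The control-specific share was 3.98 points above that of the other 22 chromosomes (1.66 to 6.28). The differences were -0.684 points in the common and 0.495 points in the depleted-specific list, both with intervals that held 0.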

How the data were processed

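FAIRE-seq libraries of a control and an NR2E3-depleted HepG2 culture were grouped by the treatment in the labels. The authors prepared reads with bcl2fastq 2.17, Trimmomatic 0.39, Bowtie2 2.4.5 and SAMtools 1.14, per the processing notes, and mapped them to hg38. Peaks were called and annotated with HOMER. The rule that made a peak common or specific, and the use of an input library in the calls, are not stated in the sources used here. The deposited peak score is the value the authors' caller gave, a scaled tag number.

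Members were taken by chromosome and annotation class, counted by the centre of the interval. Shares carry Clopper-Pearson intervals, differences Newcombe's intervals built from them, and ratios exact binomial intervals. Lengths, sequences and genes came from hg38 with GENCODE and a RefSeq gene table (GRCh38.p14), which matched 1276 of 1318 nearest genes. Other chromosomes were 1 to 22 and X.

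The members and gene lists were chosen with earlier results of these data known. Named genes were the 10 with most members, the 5 with the largest excess each way, those nearest the 3 highest-scoring members of each list, those leading the 5 fullest bins, and genes of 4 lists. A single gene of those lists is not reported here. Counts by position in a gene (a member in overlapping genes counted in each), the GGAAT repeats, the comparison of bins of like GC content and the mix of peaks with a motif were added after the data were seen. The scripts were tested on simulated data. Tables were handled with pandas 2.3.3 and numpy 2.4.6 under Python 3.11.15, intervals came from scipy 1.17.1, and plots were drawn with matplotlib 3.10.9.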

Additional observations from a re-analysis of the deposited data

How the results depend on the processing

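Of 235 alternatives, 185 gave a value inside the counting interval of the reported one (0.05 for a rank correlation), 44 moved the value and 6 reversed it. No paired analysis was possible because there was a single library for either condition, and for the same reason leaving out a replicate was not an option. Distal peaks outside annotated repeats were not run, since the annotation used here gives no repeat classes. Leaving out GGAAT repeats and the comparison with the 5 dense chromosomes for introns and motifs were added after the data were seen.

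The specific peak ratio was 2.89 at a score of 6 or more and reversed to 0.594 at 15 or more tags. These thresholds kept 71.6% and 14.7% of depleted-specific but 38.0% of control-specific members in both cases, so the change follows from their construction. The common share was 54.2% at a score of 6 or more, 42.6% with control-specific peaks within 1000 bp of a depleted-specific one counted as common, and 43.4% with peaks of every class. The arm density ratio was 0.726 for common peaks without GGAAT repeats and 0.906 for control-specific peaks at a score of 6 or more, where the interval held 1. That score gave an arm difference in the depleted-specific share of -1.62 points and an intron difference of control-specific peaks of 7.06 points. For these the cause was not tested. The rank correlation was 0.754 in 0.5 Mb and 0.930 in 5 Mb bins, which hold fewer and more peaks.

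The density folds over the other 22 chromosomes, 1.61 for common, 1.93 for control-specific and 2 for depleted-specific peaks, became 3.99, 8.26 and 4.69 without chromosomes 6, 14, 16, 17 and 20. They reversed to 0.442, 0.436 and 0.563 against those 5 alone. The intron difference of depleted-specific peaks was -1.38 points without them. Against those 5 alone the differences of depleted-specific peaks reversed to 0.561 points for CTCF and 0.174 points for Sp1, from -0.578 and -1.32 against the other 22. The direction of the arm density ratio held under every alternative run.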
